A study of Mus musculus with 19 samples.

Results

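The skeletal myosin heavy chains described here were 7 named genes, Myh1, Myh2, Myh3, Myh4, Myh7, Myh7b and Myh8, of 35598 genes summed from the deposited transcript tables, and all 7 passed the filter on low counts. Poly(A)-selected RNA was sequenced from primary mouse myoblasts isolated from hind-limb muscle, in 19 samples that fall into 6 groups. Wild-type cells (label WT) and cells labelled Glud1KO, described as deficient in Glud1, the mitochondrial glutamate dehydrogenase, were each taken as proliferating myoblasts at 24 h, as differentiated myotubes at 48 h and as fused myotubes at 72 h. There were 3 myoblast samples per label, 3 WT and 2 Glud1KO samples of differentiated myotubes, and 4 samples of fused myotubes per label. The age and strain of the mice, and the allele or agent behind the deficiency, are not given in the sources used here. The labels name biological replicates without saying whether these were separate animals or cultures, so the p-values measure the spread between these samples.

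Total estimated counts ran from 16168131 to 30742634 per sample. Glud1 RNA did not separate the labels: its group means were 189 ± 4.16 and 187 ± 2.69 CPM (counts scaled to the depth of the sample; ± SD) in WT and Glud1KO myoblasts (n = 3 each), 106 ± 5.23 (n = 3) and 99.8 ± 4.48 (n = 2) in differentiated myotubes, and 135 ± 4.49 and 133 ± 3.82 in fused myotubes (n = 4 each). The ranges of the samples overlapped at each of the 3 stages, so the RNA level does not check the label. The names of the deposited files carry a KO mark for samples of both labels, those labelled WT included. Each direction below is therefore that of the samples labelled Glud1KO, and would turn if the labels were exchanged. The 8 markers of cultured myogenic cells were detected in every group, with a summed level of 1781 to 2135 CPM in myoblasts and 8664 to 9906 CPM in myotubes. Summed levels stayed at or under 1.08 CPM for 5 endothelial markers, 1.92 CPM for 5 macrophage and leukocyte markers, 0.176 CPM for 4 adipocyte markers and 2.74 CPM for 4 Schwann cell markers. The 7 fibroblast markers summed to 281 to 288 CPM in WT and 266 to 272 CPM in Glud1KO myoblasts, and to 24.0 to 26.6 and 8.13 to 12.0 CPM in differentiated and 7.58 to 9.22 and 6.09 to 7.40 CPM in fused myotubes, without overlap at any stage and with Dpt at 0 in every group. Col3a1 alone made up 279 to 286 and 263 to 270 CPM of the myoblast sums. The 5 smooth muscle markers summed to 2800 to 3090 CPM in WT and 2161 to 2413 CPM in Glud1KO differentiated myotubes, of which Acta2 was 2567 to 2854 and 1914 to 2140 CPM, while Myh11 and Smtn were higher in both Glud1KO samples than in WT. At the other stages those sums overlapped (1087 to 1133 and 1107 to 1138 CPM in myoblasts, 708 to 761 and 737 to 786 CPM in fused myotubes). The 7 cardiac markers, among them Myh6, summed to at most 4.38 CPM, with Myl7 at 0 in every group. The part of any of these lists in the results below was not tested. In bulk samples, fewer cells of a type and less RNA per cell cannot be told apart.

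A myosin heavy chain carries the ATPase head that pulls on actin and the coiled-coil tail that packs into the thick filament, and muscle fibres are classed by the heavy chain they hold. Myh3 encodes the embryonic and Myh8 the perinatal (neonatal) chain, which dominate developing and regenerating muscle. Myh2, Myh1 and Myh4 encode the adult fast chains IIa, IIx and IIb, from the slower to the faster, and Myh7 encodes the slow chain that is also the beta chain of the heart. Myh7b, an ancient relative of Myh7, makes little protein in most limb muscle. In the mouse, Myh3, Myh2, Myh1, Myh4 and Myh8 stand in that order on 1 strand of 1 chromosome.

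In GENCODE M21 on GRCm38, all 5 genes of that cluster lie on the plus strand of chromosome 11: Myh3 at 67078300-67102291, Myh2 at 67171027-67197517, Myh1 at 67200052-67224575, Myh4 at 67238029-67260446 and Myh8 at 67277124-67308634. Myh7 lies on the minus strand of chromosome 14 at 54970684-54994626 and Myh7b on the plus strand of chromosome 2 at 155611212-155634307. The longest coding transcript of each gene had between 39 and 42 exons and a coding length of 5805 to 5826 bases. Genes on the opposite strand overlap Myh1 (Myhas), Myh2 (9430073C21Rik), Myh7 (Mhrt, Gm29015, Gm17428 and Gm31251) and Myh7b (Trpc4ap, over the last bases of the member). Whether the counting used strand is not given in the sources used here, so reads of a gene and its partner on the other strand may not be told apart. Those over Myh7 reached at most 11 counts in a sample (Mhrt), while Trpc4ap had 2238 to 4370 counts. The counts reached 411 for Myhas and 430 for 9430073C21Rik, and in fused myotubes their means were 10.7 to 15.9 CPM and 14.9 to 18.1 CPM.

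Upstream sequence is shown for Myh1, Myh2, Myh4 and Myh8, the 4 members that rose between differentiated and fused myotubes (values below). These 4 were set before the search for a common run, and no other group of 4 was searched. All 7 members matched RefSeq promoter entries (GRCm38.p6). In the 250 bases before the start, Myh1, Myh2, Myh4 and Myh8 shared a run of 14 bases, TTCTAATTATATCC, which was in neither the Myh3, the Myh7 nor the Myh7b window. Each window below is 80 bases on the plus strand, 5′ to 3′, with the shared run in capitals. The run starts 160 bases before the RefSeq start of Myh1, 125 before Myh2, 158 before Myh4 and 54 before Myh8.
Myh1, chr11:67199909-67199988: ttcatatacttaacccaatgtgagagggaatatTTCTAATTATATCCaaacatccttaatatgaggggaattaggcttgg
Myh2, chr11:67170869-67170948: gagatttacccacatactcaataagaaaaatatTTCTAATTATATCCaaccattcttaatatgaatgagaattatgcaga
Myh4, chr11:67237621-67237700: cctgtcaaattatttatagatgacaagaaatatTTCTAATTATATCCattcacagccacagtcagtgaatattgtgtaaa
Myh8, chr11:67277037-67277116: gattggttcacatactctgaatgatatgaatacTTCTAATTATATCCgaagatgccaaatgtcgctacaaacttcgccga

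Of 27025 genes with a RefSeq promoter entry, 4 held that run on either strand of the same 250 bases (0.0148%), and they were these 4 members. The run was taken as the longest one common to these 4 members, so the count describes them. A link between the run and their rise was not tested. The MEF2 box, the site of MEF2 factors, was matched on either strand in Myh1, Myh4 and Myh8, and in 3.42% of all genes. The E-box CANNTG, the site class of MyoD and myogenin, was matched in 5 members (Myh3, Myh4, Myh7, Myh7b and Myh8) and in 69.3% of all genes, and TATAAAA in Myh1, Myh3 and Myh4 and in 5.85% of all genes. The searched motifs may overlap, a match is not evidence of binding, and a missing match says only that these letters are not in this window.

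The members also share coding sequence, which bears on how well reads can be assigned. Over all annotated transcripts of each gene, 57.1% of the distinct 31-base words of Myh1 occurred in no other gene, against 65.5% for Myh2, 69.6% for Myh4, 72.1% for Myh7, 81.4% for Myh8, 89.4% for Myh3 and 99.7% for Myh7b. Myh1 and Myh2 shared 1701 words, which is 26.8% of those of Myh1 and 23.9% of those of Myh2. The longest identical stretch between their longest coding transcripts ran over 268 bases of the coding part, from base 2857 to base 3124 of the Myh1 transcript, shown in full because a fragment inside it cannot be assigned to either gene from its sequence.
Myh1 and Myh2: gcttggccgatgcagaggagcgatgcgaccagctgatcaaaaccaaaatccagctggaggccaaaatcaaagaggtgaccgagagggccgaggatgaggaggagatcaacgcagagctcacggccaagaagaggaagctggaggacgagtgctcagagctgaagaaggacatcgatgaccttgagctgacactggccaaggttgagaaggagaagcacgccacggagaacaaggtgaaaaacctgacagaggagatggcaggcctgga
The words of Myh7 shared with other genes were mostly those of Myh6, the cardiac alpha chain, with 1974 words in common. Myh6 itself stayed between 3 and 88 counts per sample. Counts of Myh1, Myh2, Myh4 and Myh8, and of Myh7 against Myh6, are therefore uncertain where the submitters' quantification split shared reads. The map of shared words shows that the sharing was concentrated within the fast and perinatal members.

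**Figure D1:**
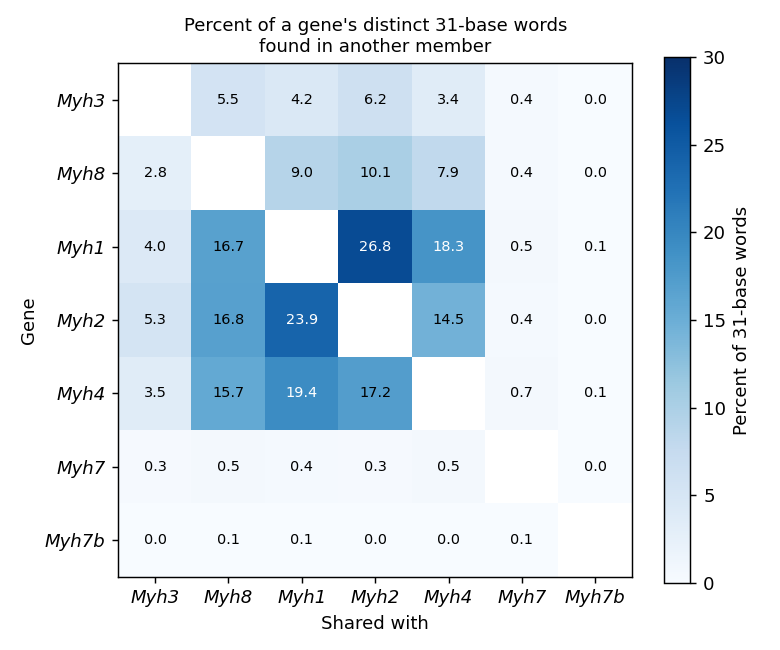
Percent of the distinct 31-base words of the gene in each row that occur in the gene of each column, over all annotated transcripts. The highest value is 26.8%, for words of Myh1 in Myh2, and each value in the rows or columns of Myh7 and Myh7b is under 1%.

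Transcripts of 1 gene were harder to tell apart than genes. In Glud1KO differentiated myotubes, replicate 1 had 218 estimated counts on Myh2-201 and 0 on Myh2-203, while replicate 2 had 0.0529 and 250. Myh4-201 and Myh4-202 switched in the same way, with 112 and 0.0290 counts in replicate 1 and 2.18e-07 and 119 in replicate 2. The gene sums of those replicates were close (12.0 and 13.3 CPM for Myh2, 5.99 and 6.24 CPM for Myh4), so members are described as gene sums. Values below on the longest coding transcript alone, Myh2-203 and Myh4-201 for these genes, carry that switching.

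Levels in TPM, transcripts scaled for length and sample depth, give the order of the members within a stage. In WT myoblasts Myh3 was the most abundant at 67.8 ± 3.07 TPM (SD, n = 3), followed by Myh1 at 22.1 ± 2.00, Myh7 at 16.2 ± 2.08 and Myh8 at 5.81 ± 0.535, and none of those neighbours overlapped between samples. Myh4, Myh7b and Myh2 followed at 0.453, 0.322 and 0.251 TPM, with overlapping ranges. In WT differentiated myotubes Myh3 reached 4575 ± 512 TPM (n = 3), Myh1 1429 ± 142, Myh8 493 ± 48.5 and Myh7 206 ± 21.9, while Myh7b, Myh2 and Myh4 stayed at 10.8, 4.43 and 2.00 TPM. No pair of neighbours overlapped at that stage.

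In WT fused myotubes Myh1 led over all transcripts at 5066 ± 99.3 TPM (n = 4), ahead of Myh3 at 3682 ± 197 and Myh8 at 1828 ± 49.4. Myh7 at 157 ± 23.7 and Myh4 at 147 ± 18.9 overlapped, Myh2 followed at 74.8 ± 6.24 and Myh7b at 5.79 ± 0.947. The Glud1KO samples had the same 4 leading genes in the same order in myoblasts (Myh3, Myh1, Myh7, Myh8) and in differentiated myotubes (Myh3, Myh1, Myh8, Myh7), and the same leading 3 in fused myotubes. Among Glud1KO fused myotubes Myh4, at 132 ± 5.69 TPM, stood above Myh7 at 90.5 ± 4.55 without overlap, and Myh7 overlapped Myh2 at 82.5 ± 2.73 (n = 4). Counting transcripts of at least 5000 bases alone, a measure added after the data were seen, Myh7 ranked lower: in Glud1KO myoblasts at 4.61 ± 0.266 TPM, below Myh8 at 5.71 ± 0.661, and in Glud1KO fused myotubes at 62.4 ± 2.41 TPM, below Myh2 at 78.5 ± 3.03, both without overlap. The leading 3 genes of every other group kept their order under that measure.

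Onset was read as the first stage at which every sample reached 1 TPM. By that rule Myh1, Myh3, Myh7 and Myh8 were on at 24 h and Myh2, Myh4 and Myh7b at 48 h, for both labels. The late group depends on the level asked for. At 0.1 TPM Myh2 and Myh4 were on at 24 h for both labels, and Myh7b at 24 h in WT and 48 h in Glud1KO. At 10 TPM the onset of Myh2 and Myh4 moved to 72 h and that of Myh8 to 48 h for both labels, that of Myh7 to 48 h in Glud1KO samples, and Myh7b did not reach it in every sample at any stage. Myoblast values of the late 3 rest on few counts: 13.2 to 27.8 estimated counts per sample for Myh2, 8 to 25 for Myh7b and 23.7 to 133 for Myh4 over both labels.

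Summed over the 7 members, the pool was 113 ± 7.52 TPM in WT myoblasts (n = 3), 6720 ± 724 in differentiated (n = 3) and 10961 ± 323 in fused myotubes (n = 4), or 0.0387%, 2.24% and 3.68% of all counts. For Glud1KO it was 72.8 ± 2.38 (n = 3), 6230 ± 180 (n = 2) and 10238 ± 272 TPM (n = 4), or 0.0255%, 2.20% and 3.51% of counts. The composition moved from embryonic to adult fast and perinatal chains. The embryonic Myh3 held 60.1 ± 1.36% of the WT pool at 24 h, 68.1 ± 0.279% at 48 h and 33.6 ± 0.956% at 72 h. The IIx gene Myh1 held 19.5 ± 0.482%, 21.3 ± 0.183% and 46.2 ± 0.934%, and the perinatal Myh8 5.14 ± 0.157%, 7.34 ± 0.0780% and 16.7 ± 0.142% (n = 3, 3 and 4). The shares depend on which transcripts are counted. On the longest coding transcript of each gene alone, Myh3 was the largest part of the WT pool in fused myotubes at 36.4 ± 2.35%, and Myh8 at 29.4 ± 0.763% and Myh1 at 29.2 ± 2.87% overlapped (n = 4). Glud1KO fused myotubes held 33.4 ± 1.10% Myh3, 32.5 ± 0.576% Myh8 and 29.6 ± 1.21% Myh1 on that measure (n = 4), and Myh3 and Myh8 overlapped. The transcript it keeps held 37.7% of the Myh1 counts in WT fused myotubes, against 60.8% for Myh3 and 99.6% for Myh8. Over all transcripts of at least 5000 bases, Myh1 stayed the largest part in WT fused myotubes at 45.2 ± 0.917%, above Myh3 at 34.7 ± 1.02%. In Glud1KO these were 45.1 ± 0.489% and 32.6 ± 0.442%.

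Myh7 held 14.3 ± 1.06% of the WT pool in myoblasts, 3.06 ± 0.116% in differentiated and 1.43 ± 0.186% in fused myotubes. That share depends on a short annotated transcript with a retained intron, Myh7-206 of 595 bases, whose few reads weigh heavily per length. Over transcripts of at least 5000 bases alone, Myh7 held 7.33%, 2.19% and 1.02%. On the longest coding transcript of each gene alone, Myh7 held 11.7 ± 0.507%, 3.74 ± 0.165% and 1.76 ± 0.198%. The IIa gene Myh2, the IIb gene Myh4 and Myh7b were minor, and their highest group means over all 6 groups were 0.805%, 1.41% and 0.289%, in Glud1KO fused myotubes, Glud1KO myoblasts and WT myoblasts. On the longest coding transcript alone the highest means of Myh2 and Myh4 were 1.31% and 2.11%, both in Glud1KO fused myotubes.

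The pool of Glud1KO myoblasts was less embryonic. Myh3 held 49.1 ± 2.55% there, with samples from 46.8 to 51.8% against 58.7 to 61.4% in WT, and Myh1 held 29.8 ± 1.22% against 19.5% (n = 3 each). Neither range overlapped, and shares of 1 pool move against each other by construction. On the longest coding transcript alone the Myh1 ranges overlapped (8.99 to 14.8% in WT and 14.1 to 21.9% in Glud1KO). In myotubes the composition was closer: Myh3 held 66.1 ± 0.859% in differentiated (n = 2) and 31.5 ± 0.487% in fused Glud1KO myotubes (n = 4), Myh1 23.0 ± 0.540% and 46.4 ± 0.585%, and Myh8 8.59 ± 0.325% and 19.1 ± 0.156%. Myh7 held 2.09 ± 0.0579% and 0.883 ± 0.0300%, below every WT sample at both stages. These shares were described without a test.

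**Figure D2:**
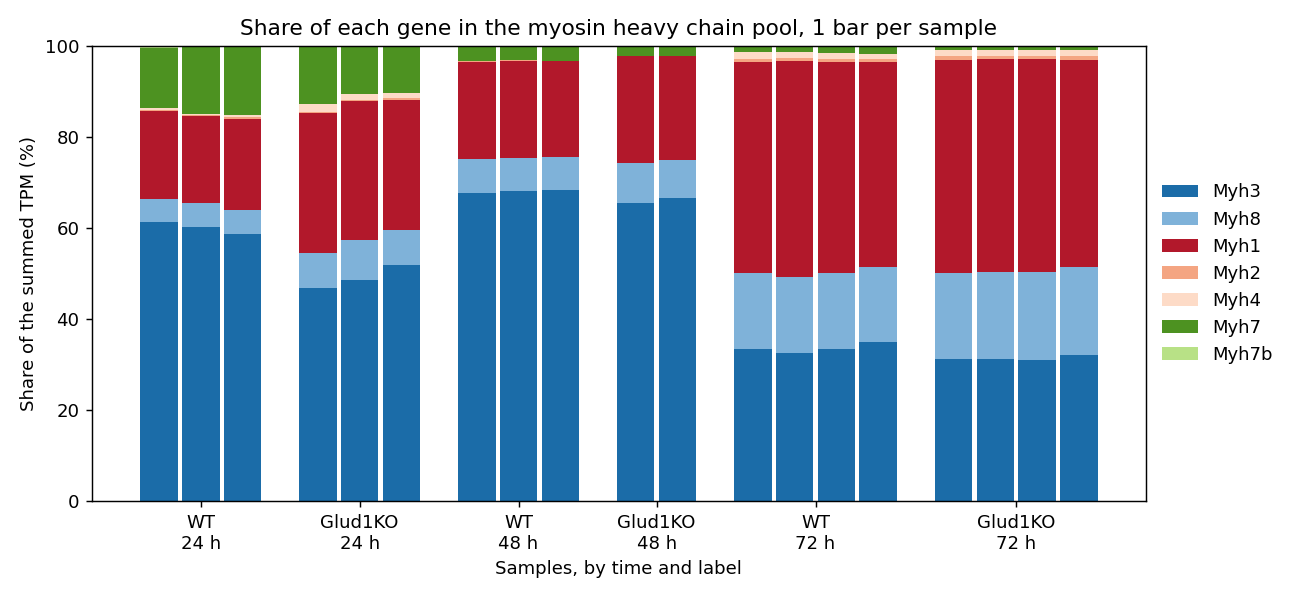
Share of each gene in the summed TPM of the 7 members (percent), 1 stacked bar per sample, ordered by time and label. Myh3 takes most of the pool at 48 h (68.1% in WT, 66.1% in Glud1KO). With all transcripts summed, Myh1 is the largest part at 72 h (46.2% and 46.4%). Over transcripts of at least 5000 bases, not drawn, it is also Myh1 (45.2% and 45.1%). On the longest coding transcript alone, not drawn, Myh3 has the highest mean at 72 h (36.4% and 33.4%), and in Glud1KO it overlaps Myh8.

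Between myoblasts and differentiated myotubes all 7 members rose for both labels, at an adjusted p under 0.05 (quasi-likelihood test of edgeR, Benjamini-Hochberg over 15123 genes). The background was high: 42.4% of all genes rose and 42.6% fell in that step in WT (85.0% in all), and 41.3% rose and 42.5% fell in Glud1KO (83.7%). The median log2 change of the members was 5.34 in WT and 6.12 in Glud1KO, against 0.02 and -0.00 for all genes tested. Myh8 went from 17.4, 17.9 and 20.7 CPM in WT myoblasts to 1618, 1688 and 1945 CPM, a log2 change of 6.55 ± 0.083 (SE), or 93.4-fold. Myh3 and Myh1 rose by 6.19 ± 0.079 and 6.15 ± 0.073 in WT, and by 7.10 ± 0.084 and 6.32 ± 0.075 in Glud1KO. The smallest rise was that of Myh4, from 1.62, 1.04 and 1.60 CPM to 6.83, 6.36 and 7.50 CPM in WT (2.26 ± 0.20). In Glud1KO samples Myh4 went from 3.81, 2.98 and 2.88 CPM to 5.99 and 6.24 CPM (0.91 ± 0.20, adjusted p 1.48e-04), a call that was lost in edgeR on the longest coding transcript alone (0.89, adjusted p 0.531).

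Between differentiated and fused myotubes the members split: the 3 adult fast genes Myh1, Myh2 and Myh4 and the perinatal Myh8 rose, and the embryonic Myh3, Myh7 and Myh7b fell, for both labels (members called: 7 of 7 each). Of all genes 37.4% rose and 37.7% fell in WT (75.1% called), and 35.8% rose and 34.4% fell in Glud1KO (70.2%). The fastest chain moved most. Myh4 reached 448 to 590 CPM in WT fused myotubes, a log2 change of 6.28 ± 0.095 or 77.9-fold, and 489 to 520 CPM in Glud1KO (6.35 ± 0.12). Myh2 reached 253 to 309 CPM in WT (4.16 ± 0.071) and 302 to 318 CPM in Glud1KO (4.61 ± 0.091). At 48 h Myh4 thus stood at 1.28% and Myh2 at 5.56% of their 72 h means in WT, while Myh1 stood at 26.6% and Myh8 at 25.3%.

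Of the members that fell, the embryonic Myh3 changed least. Its WT samples went from 14720, 15609 and 18076 CPM at 48 h to 13720, 13097, 14183 and 14852 CPM at 72 h. The ranges overlapped, the log2 change was -0.21 ± 0.058 (edgeR adjusted p 0.00232), and without WT differentiated replicate 3 it was -0.12 with adjusted p 0.0588. In Glud1KO samples Myh3 fell from 15245 and 16697 CPM to between 12278 and 13027 CPM (-0.35 ± 0.066). On the longest coding transcript alone the fall of Myh3 was not called for either label (-0.22 in WT and -0.35 in Glud1KO, edgeR adjusted p 0.387 and 0.224). Myh7 fell by 0.32 ± 0.063 in WT and 0.56 ± 0.073 in Glud1KO, and Myh7b fell by 0.40 ± 0.092 and 1.12 ± 0.12 on the log2 scale.

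**Figure D3:**
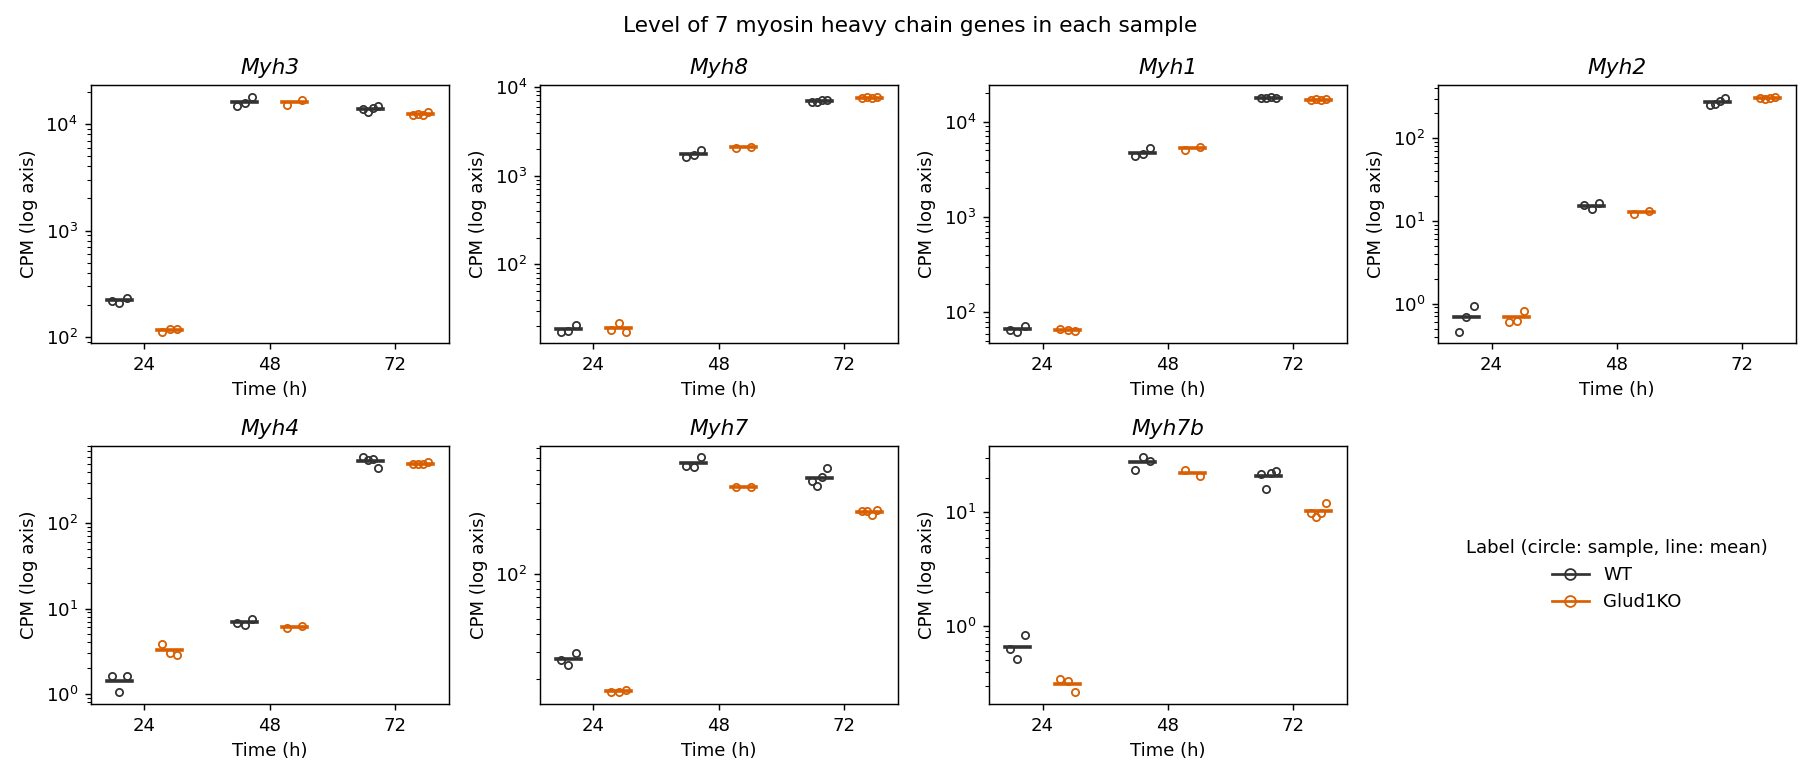
CPM of each member in each sample (circles, log axis) at 24, 48 and 72 h, with the group mean as a line, for WT (dark) and Glud1KO (orange). Myh1, Myh2, Myh4 and Myh8 are highest at 72 h and Myh3, Myh7 and Myh7b at 48 h.

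The comparison of labels asks how the deficiency relates to the heavy chains at each stage. In myoblasts 3 of 7 members differed in edgeR, where 11.6% of all genes did (4.86% higher, 6.69% lower): Myh3 and Myh7 were lower and Myh4 was higher in Glud1KO. Myh3 had 218, 210 and 233 CPM in the WT samples and 112, 119 and 119 CPM in the Glud1KO samples, a log2 difference of -0.92 ± 0.067 (adjusted p 1.35e-10). The lowest WT sample was thus far above the highest Glud1KO sample. Myh7 had 26.7, 24.7 and 29.9 CPM against 16.1, 16.2 and 16.8 CPM (-0.73 ± 0.097, adjusted p 6.04e-06), again without overlap.

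Myh4 was higher in Glud1KO myoblasts, with 3.81, 2.98 and 2.88 CPM against 1.62, 1.04 and 1.60 CPM (1.16 ± 0.23, adjusted p 8.48e-04). On the longest coding transcript alone the difference was 1.48 and was not called (edgeR adjusted p 0.797). That transcript, Myh4-201, held 33.3 ± 57.7% of the gene's counts in WT and 58.0 ± 51.9% in Glud1KO myoblasts (SD, n = 3 each). The gene sums stood on 87.5 to 133 estimated counts in Glud1KO and 23.7 to 47.8 in WT. The words of Myh4 are in part shared with the far more abundant Myh1. Myh7b was also lower in every Glud1KO myoblast sample, at 0.344, 0.327 and 0.262 CPM against 0.633, 0.519 and 0.836 CPM, but its difference of -1.10 ± 0.40 did not pass the threshold (adjusted p 0.0728). It passed in edgeR without a filter (adjusted p 0.0116), with only the groups compared (0.0215) and on the longest coding transcript alone (0.0486), and in DESeq2 (0.0143). Myh1 (65.5 against 66.8 CPM), Myh8 (19.2 against 18.7 CPM) and Myh2 (0.680 against 0.695 CPM) overlapped between labels, with log2 differences from -0.05 to 0.03.

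In differentiated myotubes 3 of 7 members differed, where 25.2% of all genes did (11.0% higher, 14.1% lower). Myh7 was lower in Glud1KO, with 386 CPM in both samples against 531, 522 and 605 CPM in WT (-0.52 ± 0.077, adjusted p 1.20e-05). The perinatal Myh8 was higher, with 2054 and 2103 CPM against 1618, 1688 and 1945 CPM (0.25 ± 0.068, adjusted p 0.00779). The Myh8 call was lost in edgeR on the longest coding transcript alone (0.26, adjusted p 0.0505). Without Glud1KO replicate 2, which leaves 1 sample in that group, the Myh8 difference was 0.23. Myh7b, with 23.4 and 20.8 CPM against 23.7, 30.3 and 28.1 CPM, passed narrowly (-0.31 ± 0.11, adjusted p 0.0408). Leaving out WT replicate 2 or 3 lost that call (-0.24 and -0.29, edgeR adjusted p 0.161 and 0.101), as did 5 other settings, DESeq2 among them (0.0926). Without Glud1KO replicate 1 or 2, which leaves 1 sample in that group, the Myh7b difference was -0.40 or -0.23. Myh3, which had differed in myoblasts, did not pass here: 15245 and 16697 CPM lay within the WT range of 14720 to 18076 CPM (-0.01 ± 0.070, adjusted p 0.909). Myh1 was at 0.14 ± 0.063, Myh2 at -0.28 ± 0.11 and Myh4 at -0.18 ± 0.18, none of them called. Myh1 was called higher in DESeq2 (adjusted p 0.0399), and in edgeR with the replicate block (0.0360) or without WT replicate 3 (0.00533). Myh2 was called lower in DESeq2 (adjusted p 0.0466), and in edgeR by library size only (0.0225), without a filter (0.0125) or without WT replicate 2 (0.0393).

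In fused myotubes 3 of 7 members differed, where 13.0% of all genes did (6.32% higher, 6.72% lower), and the slow-type pair Myh7 and Myh7b stood out in size. Myh7 had 265, 265, 247 and 267 CPM in Glud1KO against 418, 389, 448 and 514 CPM in WT (-0.76 ± 0.060, adjusted p 7.98e-10). Myh7b had 9.85, 9.12, 9.79 and 12.0 CPM against 21.7, 16.1, 22.0 and 22.8 CPM (-1.04 ± 0.10, adjusted p 4.03e-08). Neither gene overlapped between labels. The IIa gene Myh2 was called higher at 310, 302, 309 and 318 CPM against 253, 257, 284 and 309 CPM, but the labels overlapped (0.17 ± 0.049, adjusted p 0.0230), and the call was lost in edgeR without WT replicate 1, WT replicate 2 or Glud1KO replicate 4 (adjusted p 0.114, 0.0885 and 0.0530), with the effective-length offset (0.198) and on the longest coding transcript alone (0.905), where the log2 differences were 0.17 and 0.18.

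The remaining members of fused myotubes were not called. Myh3 was at -0.16 ± 0.054 (adjusted p 0.0564), although its 12278 to 13027 CPM in Glud1KO lay below all WT samples (13097 to 14852 CPM). Its call was gained without WT replicate 2 or without Glud1KO replicate 4 (edgeR adjusted p 0.0354 and 0.0476), and in DESeq2 (0.0281) and 4 other edgeR settings (0.00784 to 0.0299). Myh8 was at 0.13 ± 0.053, with 7400 to 7752 CPM in Glud1KO above all WT samples (6683 to 7166 CPM). It was called higher in edgeR without a filter (adjusted p 0.0339) or with only the groups compared (0.0168). Myh1 was at -0.07 ± 0.049, with 16947 to 17124 CPM in Glud1KO below all WT samples (17572.5 to 18262 CPM). Myh4 was at -0.12 ± 0.056 with overlap, and was called lower in edgeR without WT replicate 4 (-0.20, adjusted p 0.00146) or without a filter (0.0350). Myh7 was called lower in Glud1KO at each of the 3 stages, and so was Myh7b without a filter or with only the groups compared.

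**Figure D4:**
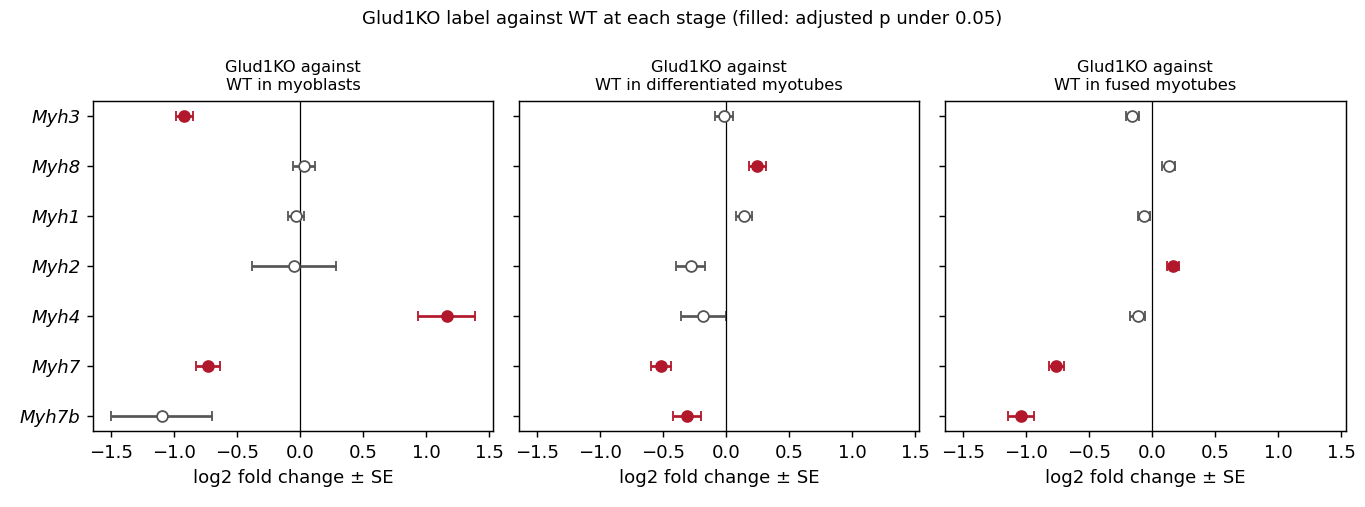
Log2 fold change of Glud1KO against WT (x axis, with SE as bars) for each member at 24 h (left), 48 h (middle) and 72 h (right); filled points passed an edgeR adjusted p of 0.05. Myh7 is filled to the left of 0 in all 3 panels (-0.73, -0.52 and -0.76), and Myh3 in myoblasts alone (-0.92).

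Whether the label difference changed between stages was tested as an interaction in the same fit. From myoblasts to differentiated myotubes 2 of 7 members were called, where 19.1% of all genes were (7.78% up, 11.3% down): the Glud1KO difference of Myh3 moved up by 0.90 ± 0.096 (adjusted p 1.01e-07) and that of Myh4 moved by -1.34 ± 0.29 (adjusted p 0.00134). Neither was called on the longest coding transcript alone (1.01 and -2.09, edgeR adjusted p 0.0790 and 0.592). From differentiated to fused myotubes 2 of 7 were called, where 14.8% of all genes were (8.27% up, 6.53% down): Myh2 at 0.45 ± 0.12 (adjusted p 0.0150) and Myh7b at -0.73 ± 0.15 (adjusted p 0.00156). The Myh2 value lost its call without WT differentiated replicate 3 (0.39, edgeR adjusted p 0.0568). Without Glud1KO differentiated replicate 1, which leaves 1 sample in that group, it was 0.37. Myh2 and Myh7b both lost their call with the effective-length offset (0.38 and -0.77, edgeR adjusted p 0.135 and 0.149) and on the longest coding transcript alone (1.10 and -0.72, adjusted p 0.506 and 0.0749). Both interactions use the differentiated samples, and therefore share them. For Myh7 neither interaction was called (0.21 ± 0.12 and -0.24 ± 0.097, adjusted p 0.254 and 0.0951). That from differentiated to fused myotubes was called for Myh7 in edgeR without a filter (adjusted p 0.00398), with the replicate block (0.0220), without WT differentiated replicate 3 (0.0290) and without WT fused replicate 2 (0.0248). For Myh1 it was called with the replicate block (-0.24, 0.0314), without WT differentiated replicate 3 (-0.29, 0.00580) and in DESeq2 (-0.22, 0.0265). Without WT differentiated replicate 3 the interaction from myoblasts to differentiated myotubes was also called for Myh1 and Myh8 (0.26 and 0.30, edgeR adjusted p 0.0227 and 0.0384).

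The genes that work with the heavy chains were described from named lists. Each count is to be read against the share of all genes called in the same comparison: 4.86% higher and 6.69% lower in Glud1KO myoblasts, 11.0% and 14.1% in differentiated, and 6.32% and 6.72% in fused myotubes, with medians over all genes of 0.01, -0.01 and -0.01. Sarcomeric light chains, which bind the neck of the heavy chain, had 5 tested genes. In Glud1KO myoblasts 4 of 5 were lower, where 6.69% of all genes were, with a median log2 difference of -0.35, led by the fast regulatory chain Mylpf (-0.72 ± 0.068), Myl6b (-0.47 ± 0.062) and the embryonic chain Myl4 (-0.35 ± 0.063). In differentiated myotubes all 5 were higher, where 11.0% of all genes were, with a median of 0.32, led by the slow regulatory chain Myl2 (1.00 ± 0.20, at a mean of 5.44 against 2.70 CPM), Myl1 (0.47 ± 0.063) and Myl4 (0.32 ± 0.063). In fused myotubes 2 of 5 were higher, where 6.32% of all genes were, Mylpf (0.18 ± 0.057) and Myl6b (0.13 ± 0.042). Myh7 was lower at each of those 3 stages.

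Of 21 tested genes for myosin folding and thick filament assembly, 15 were lower and 0 higher in Glud1KO myoblasts (median -0.47), where 6.69% of all genes were lower. The falls were led by the M-band proteins Myom1 (-0.88 ± 0.063) and Myom3 (-0.67 ± 0.056) and the myosin chaperone Unc45b (-0.74 ± 0.099). In differentiated myotubes the median was 0.10 and 7 were higher, where 11.0% of all genes were, with Unc45b at 0.32 ± 0.055, the ubiquitin ligase Trim63 at 0.27 ± 0.044 and the myosin-binding protein Mybph at 0.23 ± 0.061, and 1 was lower, the chaperone Unc45a (-0.26 ± 0.070). In fused myotubes, with a median of -0.05 and 13.0% of all genes called, 2 were higher, Xirp1 (0.23 ± 0.045) and the myosin methyltransferase Smyd1 (0.14 ± 0.033), and 5 were lower, led by Myom2 (-0.39 ± 0.045), Mybpc1 (-0.26 ± 0.049) and Mybpc2 (-0.23 ± 0.074).

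Genes that accompany slow or fast heavy chains in adult fibres did not all move with Myh7. Of 8 tested slow partners, 4 were lower in Glud1KO myoblasts (median -0.22), where 6.69% of all genes were, led by the slow troponins Tnnc1 (-0.56 ± 0.069), Tnni1 (-0.47 ± 0.059) and Tnnt1 (-0.37 ± 0.077). In differentiated myotubes 5 were higher (median 0.23), where 11.0% of all genes were, led by Myl2, Myoz2 (0.71 ± 0.060) and Tnnc1 (0.29 ± 0.069), while the slow calcium pump Atp2a2 was lower (-0.22 ± 0.047) beside the lower Myh7. In fused myotubes the median was -0.07 and 3 were lower, where 6.72% of all genes were, Tpm3 (-0.42 ± 0.031), Tnnt1 (-0.30 ± 0.046) and Atp2a2 (-0.21 ± 0.036), and Myoz2 was higher (0.29 ± 0.045).

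Of 11 fast partners, 7 were lower and 1 higher in Glud1KO myoblasts (median -0.34; 6.69 and 4.86% of all genes), led by Mylpf, the fast calcium pump Atp2a1 (-0.58 ± 0.071) and the fast troponin Tnnt3 (-0.46 ± 0.059), with the calcium buffer Casq1 higher (0.58 ± 0.099). In differentiated myotubes 8 of 11 were higher and 0 lower (median 0.34; 11.0 and 14.1% of all genes), led by the calcium buffer Pvalb (0.99 ± 0.23), Myl1 and Tnnt3 (0.39 ± 0.056). In fused myotubes Mylpf was higher and Mybpc2 lower (median -0.01), 2 of 11 where 13.0% of all genes were called. The slow and fast lists share Myl2, Mylpf, Myl1 and Mybpc2 with the lists above.

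Among 37 tested fibre type regulators, 9 were lower and 2 higher in Glud1KO myoblasts, 5 lower and 9 higher in differentiated, and 3 lower and 5 higher in fused myotubes. Of all genes 11.6, 25.2 and 13.0% were called, and the list medians of -0.08, 0.07 and -0.01 compare with 0.01, -0.01 and -0.01 for all genes. Mef2a, a MEF2 factor of muscle genes, was lower at each stage (-0.77 ± 0.040, -0.42 ± 0.044 and -0.54 ± 0.034). In myoblasts Maf (-0.45 ± 0.12), a regulator of fast IIb fibres, and Tbx15 (-0.42 ± 0.043), which marks fast glycolytic fibres, were lower, and Six2 (0.23 ± 0.061) and Eya1 (0.19 ± 0.061) were higher. In differentiated myotubes the long noncoding 2310065F04Rik (0.76 ± 0.21), Esrrg (0.60 ± 0.12) and Tead4 (0.37 ± 0.059) were higher, and Thrb (-0.40 ± 0.13) and Vgll2 (-0.40 ± 0.065) were lower. In fused myotubes Esrrg (0.33 ± 0.083), Sox6 (0.30 ± 0.054), a repressor of slow fibre genes, and Mef2c (0.16 ± 0.045) were higher, and Prox1 (-0.36 ± 0.082), which sustains slow fibre genes, and Hdac4 (-0.16 ± 0.052) were lower.

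Of the 8 markers of cultured myogenic cells, 4 were lower and 0 higher in Glud1KO myoblasts (median -0.21), where 6.69% of all genes were lower. The regulator Myog was lower by -0.63 ± 0.071, the fusion protein Mymk by -0.45 ± 0.065, the intermediate filament gene Des by -0.33 ± 0.054 and the creatine kinase Ckm by -0.81 ± 0.23, while Pax7, Myf5, Myod1 and Cdh15 were not called. In differentiated myotubes 4 of 8 were called (median 0.03), where 25.2% of all genes were: Mymk was higher (0.27 ± 0.061, with 1999 to 2229 against 1660 to 1828 CPM), and the satellite cell factor Pax7 (-0.92 ± 0.14, with 5.08 to 6.19 against 10.2 to 11.3 CPM), Myod1 (-0.31 ± 0.056) and Myf5 (-0.19 ± 0.057) were lower. In fused myotubes Myf5 was lower (-0.31 ± 0.040), and the other 7 of these 8 markers were not called (median -0.02), where 13.0% of all genes were. The part of differentiation state in the level of any member was not tested.

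Other myosins were followed as well. Of 3 sarcomeric heavy chains outside the members, Myh6 was lower in Glud1KO fused myotubes, at 1.55 ± 0.192 against 3.63 ± 0.355 CPM (n = 4 each; -1.23 ± 0.17, edgeR adjusted p 1.05e-05). It shares words with Myh7, and Myh13 and Myh15 were not called at any of the 3 stages. The non-muscle chain Myh9 was lower in differentiated (-1.01 ± 0.074) and fused myotubes (-0.97 ± 0.060), Myh10 was lower in differentiated myotubes (-0.37 ± 0.065), and Myh14 was lower in myoblasts (-2.03 ± 0.26) and fused myotubes (-0.51 ± 0.12). Myh11, the smooth muscle chain, was higher in differentiated myotubes (1.25 ± 0.45), at a low level of 1.02 to 1.62 against 0.479 to 0.598 CPM. Of the 4 non-muscle light chains, Myl9 was lower in differentiated myotubes (-1.22 ± 0.078), and Myl12a (0.30 ± 0.035) and Myl6 (0.11 ± 0.036) were higher in fused myotubes.

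Myh7 and Myh7b each carry a microRNA gene within their introns, shown because both host genes were lower in Glud1KO fused myotubes. The mature forms from RefSeq (GRCm38.p6), 5′ to 3′ with the seed (bases 2 to 8) in capitals, share the first 6 bases of the seed.
mmu-miR-208b-3p, in Myh7, chr14:54975710-54975731, minus strand: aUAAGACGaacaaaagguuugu
mmu-miR-499-5p, in Myh7b, chr2:155622893-155622913, plus strand: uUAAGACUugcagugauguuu
The levels of both microRNAs were not analysed here.

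The genes whose course was most like that of each member were named by Pearson's r of log2 CPM over the 19 samples, which share stage and label, so the values are a description. Myh3 was closest to the Z-disc gene Ldb3, the M-band gene Myom3 and Myo18a (r of 0.999 each), and Myh1 to genes that included Dcaf6 and Sypl2 (0.999 each). Myh8 was closest to Klc2, Sypl2 and Dcaf6 (0.999 each), so it shared Dcaf6 and Sypl2 with Myh1, and r between Myh1 and Myh8 themselves was 0.9997. Myh7 was closest to Uso1 (0.993), Dgkg (0.993) and the calcium pump regulator Mrln (0.992), and Myh7b to Mrln (0.993), Rreb1 (0.992) and Sec16a (0.991), with r of 0.997 between Myh7 and Myh7b. Myh2 was closest to Ift122 (0.998), Nipsnap2 (0.997) and Rmnd5a (0.997), and Myh4 to Afg3l2, Dld and Ndufv1 (0.995, 0.995 and 0.994), which encode mitochondrial proteins. The lowest r between members was that of Myh4 and Myh7b (0.586).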

How the data were processed

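The submitters' processing notes name bcl2fastq 2.20, fastp 0.20.0, kallisto 0.46.1, edgeR 3.36 and build GRCm38.p6. The authors deposited 1 table per sample with estimated counts and TPM for 121843 transcripts, per the file headers. GENCODE M21 gave gene names for 121018 of them. The other 825 held 0.255 to 0.507% of the counts and were left out. Groups follow the sample titles. Deposited file names carry a KO mark for the samples of both labels, those labelled WT included, with a further letter for those labelled Glud1KO, and Glud1 RNA does not separate the labels. If the labels were exchanged, each direction between them would turn.

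Estimated counts were summed per gene over all its transcripts and rounded to whole numbers. All 19 samples were fitted with edgeR 4.0.16 (R 4.3.3, quasi-likelihood, TMM, filterByExpr, 1 mean per group), adjusting by Benjamini-Hochberg over all 15123 genes that passed. SE is the log2 change divided by the square root of F. CPM use the TMM library sizes, and shares use deposited TPM summed per gene. Over all genes, edgeR put the common biological variation at a coefficient of 4.03%. The fit was tested on simulated data. Alternatives used DESeq2 1.42.0, other scalings, filters, groups, transcripts and a replicate block, and left out each sample.

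The named genes are the 7 members, the 3 genes most like each, up to 3 genes with the largest rise and fall per list and comparison, and genes that overlap a member. 1 of the genes most like a member is not reported here. Myl3, Myl7 and other listed genes under the filter were not tested. Members and lists were chosen with earlier results of these data known.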

Additional observations from a re-analysis of the deposited data

Results flagged for a closer look

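For 3 members, 1 of the 4 samples of a group lay far from the others by Dixon's criterion, which chance exceeds in about 1 of 20 groups. Myh4 had 520 CPM in Glud1KO fused myotubes replicate 4, against 489, 491 and 493 CPM in the others. Myh7 had 247 CPM in Glud1KO fused myotubes replicate 3, against 265, 265 and 267 CPM. Myh7b had 16.1 CPM in WT fused myotubes replicate 2, against 21.7, 22.0 and 22.8 CPM, and that sample was still above all 4 Glud1KO samples.

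The difference between labels changed between stages for 4 members by the interaction test in edgeR. It moved by 0.90 for Myh3 and by -1.34 for Myh4 from myoblasts to differentiated myotubes, and by 0.45 for Myh2 and -0.73 for Myh7b from differentiated to fused myotubes (log2 scale). On the longest coding transcript alone none of the 4 was called (edgeR adjusted p 0.0790, 0.592, 0.506 and 0.0749), and with the effective-length offset Myh2 and Myh7b were not (0.135 and 0.149). For Myh3 and Myh4 the label difference was called in myoblasts and not in differentiated myotubes, and for Myh7b it was larger in fused myotubes.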

How the results depend on the processing

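The lower Myh7 in Glud1KO kept its direction and call under every alternative run at each stage (log2 from -0.996 to -0.65 in myoblasts, -0.57 to -0.45 in differentiated and -0.82 to -0.68 in fused myotubes), as did Myh3 in myoblasts (-1.02 to -0.87) and Myh7b in fused myotubes (-1.13 to -0.98). Of the 3 members called in differentiated myotubes, 1 was called with the longest coding transcript only, and leaving out 1 WT sample at a time gave 3. In fused myotubes the count was 6 without a filter and 5 with only the groups compared. In the interaction of differentiated myotubes against myoblasts it was 0 with the longest coding transcript only and 2 to 4 when samples were left out (without WT differentiated replicate 3). In that of fused against differentiated myotubes it was 0 with the effective-length offset, 0 with the longest coding transcript only, 4 with the replicate block, and up to 3 when a WT sample was left out. With the longest coding transcript only, Myh4 in myoblasts also lost its call (1.48, edgeR adjusted p 0.797). The cause of these changes was not tested. Over all genes, the share called between labels in myoblasts, differentiated and fused myotubes went from 11.6, 25.2 and 13.0% to 3.86, 14.2 and 5.44% with the effective-length offset and to 2.85, 12.5 and 3.88% with the longest coding transcript only, and those of the 2 interactions from 19.1 and 14.8% to 9.61 and 6.49% and to 8.45 and 5.77%. Without a filter, with 26257 genes tested, the 3 shares were 6.78, 14.1 and 7.72% and those of the interactions 10.53 and 8.25%, and the 4 shares between stages were 42.4 to 53.6%. Leaving out a Glud1KO sample of differentiated myotubes leaves 1 in that group, so no share is given for those fits. In myoblasts the share called between labels was 19.7% with only the groups compared, 6.15% without WT replicate 3, 7.60% without Glud1KO replicate 1 and 7.09% without Glud1KO replicate 3.

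Over all genes tested, deviations of same-numbered samples from their group means were close to uncorrelated (r from -0.051 to 0.039). That does not tell whether same-numbered samples came from 1 animal or preparation. With the replicate block in differentiated myotubes Myh1 gained a call (0.17, edgeR adjusted p 0.0360), Myh7b lost it (0.0654), and Myh3 turned to 0.021. Signs turned in no called value. With the longest coding transcript only, Myh1 was 0.16 in myoblasts and Myh4 0.075 in fused myotubes. Leaving out 1 sample at a time gave -0.073 to 0.035 for Myh1, -0.29 to 0.26 for Myh2 and -0.065 to 0.12 for Myh8 in myoblasts, and -0.083 to 0.075 for Myh3 in differentiated myotubes. It gave -0.54 to 0.011 for the Myh2 interaction of differentiated myotubes against myoblasts, and -0.017 to 0.12 for the Myh4 interaction of fused against differentiated myotubes. Of the values for shares of the pool under other scales or without a sample, 83 moved by more than 1 SD and 176 did not. At 10 TPM in place of 1 the onset of Myh2 and Myh4 was 72 h and at 0.1 TPM it was 24 h. Members with under 30 counts per WT myoblast sample (Myh2 and Myh7b) are limited by depth there.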
